A study of Homo sapiens with 16 samples.

Results

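The tissue kallikreins described here are 10 genes, KLK3, KLK4, KLK5, KLK6, KLK7, KLK8, KLK9, KLK10, KLK11 and KLK13, out of 20356 genes in the count table. They were selected on their place in the kallikrein cluster of chromosome 19 and on their measured counts in the 4 groups, so their own values below, and the calls and intervals given with them, describe these libraries and are no independent evidence on the family. The table holds 15 tissue kallikreins in all, and the other 5 (KLK1, KLK2, KLK12, KLK14 and KLK15) are given beside them. The study sequenced RNA of PC3 in 16 libraries, 4 in each group. PC3 is an established human prostate cancer line. The groups were DDX4-null PC3 cells in monolayer culture, control PC3 cells in monolayer culture, DDX4-null PC3 xenograft tumors and control PC3 xenograft tumors. A xenograft tumor is one that the human cells form in a host animal, and neither the host, the way DDX4 was disrupted nor the number of clones is given in the sources used here. The design asked what DDX4, an RNA helicase of germ cells, does in these cancer cells. Whether the 4 libraries of a group are separate cultures or animals is not stated, so a p-value here weighs a difference against library spread that may be technical only.

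Tissue kallikreins are secreted serine proteases made as inactive pro-enzymes, which other proteases, among them other kallikreins, cut to switch on. In skin, KLK5, KLK7 and KLK14 form a cascade that cuts the links between surface cells and is held back by the inhibitor SPINK5. In the prostate, KLK3 (prostate-specific antigen), KLK2 and KLK4 are driven by androgens, and KLK3 in blood is the clinical marker of the gland.

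The promoters of 3 members are shown because the results separate these genes: KLK5 changed most in culture, KLK10 led in tumors, and KLK3 is an androgen-driven gene of the family. Each is 250 bases upstream of a RefSeq start on GRCh38.p14, read 5′ to 3′ on the gene's own strand. Capitals mark the TATA box core TATAAA on either strand (TTTATA is TATAAA on the other strand).
KLK5, chr19:50953039-50953288, minus strand: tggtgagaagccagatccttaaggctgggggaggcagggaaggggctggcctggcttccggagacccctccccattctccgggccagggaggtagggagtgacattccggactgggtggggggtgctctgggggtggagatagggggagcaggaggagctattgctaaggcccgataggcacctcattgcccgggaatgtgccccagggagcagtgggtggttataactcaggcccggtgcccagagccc
KLK10, chr19:51019862-51020111, minus strand, 1 of the starts in the table: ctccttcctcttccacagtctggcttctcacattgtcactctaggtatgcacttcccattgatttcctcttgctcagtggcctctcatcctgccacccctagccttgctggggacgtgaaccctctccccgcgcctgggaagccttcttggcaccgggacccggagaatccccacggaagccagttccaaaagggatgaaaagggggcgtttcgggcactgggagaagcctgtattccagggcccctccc
KLK3, chr19:50854665-50854914, plus strand: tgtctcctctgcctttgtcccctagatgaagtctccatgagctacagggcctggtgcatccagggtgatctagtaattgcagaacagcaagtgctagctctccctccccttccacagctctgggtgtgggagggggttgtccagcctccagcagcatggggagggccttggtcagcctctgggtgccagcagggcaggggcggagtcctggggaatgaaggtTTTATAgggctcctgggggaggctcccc
RefSeq promoters matched 13 of the tissue kallikreins, with 22 promoters in all, and KLK1 and KLK8 were not matched. TATAAA was found in 3 of the 22 promoters (1 each of KLK2, KLK3 and KLK15), against 10.7% of 35116 human promoters. The nuclear receptor hexamer AGGTCA was found in 2 of the 22 (KLK2 and KLK13), against 12.1% of promoters. Sites of the androgen receptor were not searched for, so an unmarked window may hold them. Neither TGANTCA, the AP-1 site (6.57% of promoters), nor AACCNGTT, a grainyhead-like site (1.49%), was found in any kallikrein window. All searches used both strands.

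Library totals ran from 12204254 to 25443952 counts, and a count of 0 allows up to 3 counts, or 0.111 to 0.26 CPM per library. CPM are counts per 1000000, scaled by the TMM factors of edgeR. DDX4 RNA itself was near that floor in every group, with 2, 4, 0 and 1 counts in DDX4-null monolayers and 0, 4, 1 and 5 in control monolayers. DDX4-null tumors had 3, 2, 2 and 4 DDX4 counts and control tumors 5, 2, 3 and 3, so these counts cannot check the genotype labels. All 5 epithelial markers of PC3 had counts in every group, and in tumors their sum overlapped, at 1188 to 1614 CPM in DDX4-null and 1207 to 1368 CPM in control tumors. In monolayers the sum did not overlap, at 1443 to 1726 CPM in DDX4-null and 859 to 983 CPM in control libraries. EPCAM, KRT8, KRT18 and KRT19 were called higher and CDH1 lower there by edgeR, where 35.0% of all tested genes were called higher and 32.3% lower. All 6 fibroblast markers (collagens, DCN, LUM and PDGFRA) had counts in both tumor groups. Their sum was 10744, 1662, 1906 and 1890 CPM in DDX4-null tumors, against 1815, 1372, 1571 and 1859 CPM in control tumors. DDX4-null tumor 1 thus stood apart, and the log2 changes of kallikreins that rest on it are given with and without it. Of the 6 fibroblast markers edgeR called 0 between the tumor groups, where 2.09% of all tested genes were called. All 6 had positive log2 changes in DDX4-null against control tumors (median 1.3), and 5 had an unadjusted p under 0.05. In monolayers the fibroblast sum was 45.4 to 57.7 CPM in DDX4-null and 23.8 to 31.0 CPM in control libraries. The part of the epithelial and fibroblast markers in the monolayer results was not tested. In bulk RNA, fewer cells of a type and less RNA per cell cannot be told apart.

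In monolayer culture, kallikrein RNA was far higher in DDX4-null cells than in control cells. The 10 members summed to 111.2, 127.2, 109.4 and 96.9 CPM in DDX4-null monolayers, against 4.24, 4.9, 3.19 and 3.82 CPM in control monolayers. Of the 10, 7 passed the low-count filter of edgeR (filterByExpr), and all 7 were called higher at an adjusted p under 0.05, where 35.0% of 13006 tested genes were called higher. The groups of these 7 did not overlap, which held in this direction for 31.0% of tested genes. For 6 of the 7, all but KLK10, no control library reached the filter's minimum, so they were tested only through the group where they are high and their count gives no support of its own. The median log2 change of the 7 was 4.13, against 0.02 over all genes tested.

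KLK5, a trypsin-like protease that activates other kallikreins in skin, changed most. It had 83.7, 88.8, 82.9 and 71.3 CPM in DDX4-null monolayers, against 0.265, 0.213, 0.056 and 0.0647 CPM in control monolayers. These were 5963 counts in all in DDX4-null cells and 9 in control cells, a log2 change of 9.08 ± 0.22 (SE; n = 4 libraries per group here and throughout). Every DDX4-null library lay within a narrow band, while control libraries held 1 to 4 counts each. KLK4, a trypsin-like enzyme that matures tooth enamel and is made in prostate, had 1.76, 2.47, 1.16 and 1.78 CPM in DDX4-null monolayers, against 0, 0.213, 0.168 and 0 CPM in control monolayers. Its log2 change was 4.12 ± 0.49, and control cells held 6 counts in all.

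KLK7, the chymotrypsin-like partner of KLK5 in skin, had 1.65, 2.41, 1.96 and 1.26 CPM in DDX4-null monolayers and 0.0662, 0.071, 0.112 and 0.129 CPM in control monolayers. The log2 change was 4.13 ± 0.41, and no control library held more than 2 counts. KLK8, or neuropsin, a protease of brain and skin, had 4.05, 5.29, 4.03 and 3.6 CPM in DDX4-null monolayers and 0.0662, 0.142, 0.112 and 0.129 CPM in control monolayers, a log2 change of 5.15 ± 0.32. A read-through gene of the table shares 40.1% of the exon bases of KLK8 on the same strand, so reads of the overlap could be split between them. On the opposite strand other genes overlap 12.2% of the exon bases of KLK5, 20.3% of KLK6 and 6.23% of KLK10, and the strand setting of the counting is not given. KLK6, or neurosin, known from the central nervous system, had 2.19, 3.0, 0.978 and 1.73 CPM in DDX4-null monolayers and 0.265, 0, 0 and 0.0647 CPM in control monolayers, a log2 change of 4.5 ± 0.56.

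Per length of exon, KLK10 and KLK11 had the highest mean levels of the 10 in control monolayers, and their changes were the smallest of the 7. KLK10, a kallikrein of normal epithelium, had 13.9, 20.2, 14.2 and 13.4 CPM in DDX4-null monolayers, against 3.18, 3.97, 2.46 and 2.72 CPM in control monolayers, a log2 change of 2.33 ± 0.18. KLK11, a trypsin-like kallikrein found in prostate and brain, had 3.95, 4.53, 3.91 and 3.6 CPM in DDX4-null monolayers, against 0.397, 0.284, 0.224 and 0.582 CPM in control monolayers, a log2 change of 3.41 ± 0.26. All 4 DDX4-null libraries lay above all 4 control libraries for both genes.

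The 3 members that did not pass the filter were KLK3, KLK9 and KLK13. KLK3 had 3 counts in all DDX4-null monolayers and 0 in control monolayers, with no fold to give at this depth, and 0 and 1 counts in DDX4-null and control tumors. KLK9 had 1 count in DDX4-null monolayers and 0 in every other group, and 93.7% of its exon bases are shared with the same read-through gene. KLK13, a kallikrein of squamous epithelium, had 14 counts in DDX4-null monolayers against 3 in control monolayers, 3.97-fold more relative to library size (95% exact interval 1.11 to 21.5, counting error only).

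Of the 5 tissue kallikreins outside the 10, KLK1 and KLK14 were tested in monolayer and both rose, where 35.0% of tested genes did. KLK1 was tested only through the DDX4-null libraries, so its call was largely fixed by the filter. KLK14, a trypsin-like enzyme of the skin cascade, had 30.5, 29.9, 29 and 23.5 CPM in DDX4-null monolayers, against 2.32, 2.48, 1.96 and 1.49 CPM in control monolayers (log2 change 3.78 ± 0.16, edgeR adjusted p = 1.4e-13). KLK1, which releases kinins from kininogen, had 236 counts in DDX4-null cells and 1 in control cells, 201-fold more (95% exact interval 35.7 to 7961; edgeR adjusted p = 2.2e-09). KLK2 and KLK12 had 0 counts in all 16 libraries, and KLK15 had 3 counts in 1 DDX4-null monolayer library and none elsewhere.

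**Figure D1:**
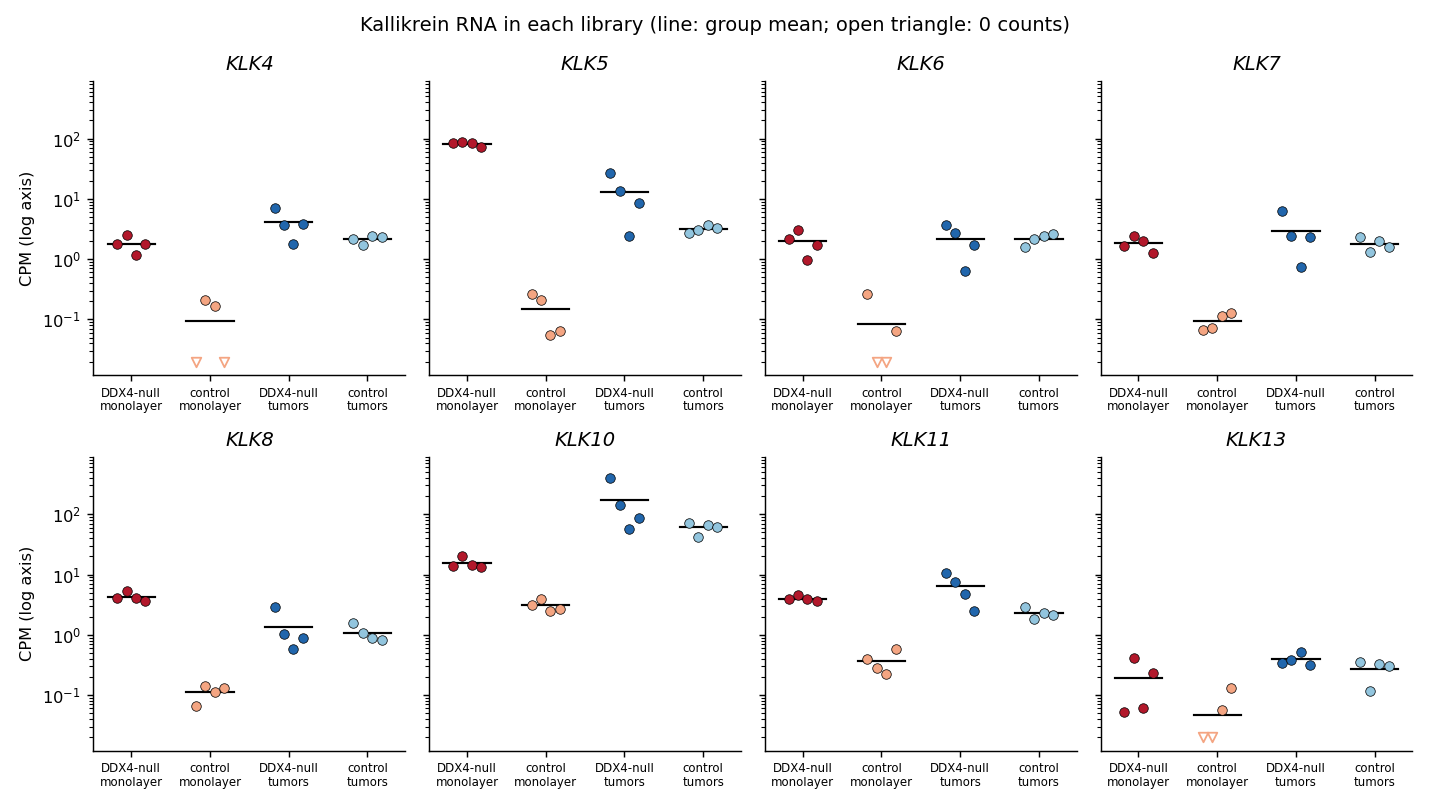
CPM of KLK4, KLK5, KLK6, KLK7, KLK8, KLK10, KLK11 and KLK13 in each library on a log axis, by group, with the group mean as a line and libraries at 0 counts as open triangles. In monolayer the DDX4-null libraries of the 7 tested members lie above the control libraries, while in tumors the groups overlap for every gene shown.

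In tumors, the levels of the same genes overlapped between genotypes. The 10 members summed to 453.4, 173.0, 68.4 and 105.7 CPM in DDX4-null tumors, against 86.6, 52.3, 80.0 and 75.6 CPM in control tumors. None of the 7 tested members was called by edgeR, where 2.09% of 12942 tested genes were called in either direction. At an unadjusted p under 0.05 there were 4 (KLK4, KLK5, KLK10 and KLK11), and DESeq2 called 2, KLK5 and KLK11, both higher in DDX4-null tumors. In 1 edgeR model of all 16 libraries 3 were called higher (KLK5, KLK10 and KLK11), and with no low-count filter KLK11 was. Among all genes, DESeq2 called 478 higher and 405 lower, and the model of 16 libraries 470 and 338. The edgeR fit of the tumor libraries alone called 127 higher and 143 lower. The share of all genes at an unadjusted p under 0.05 is not given here. Leaving out DDX4-null tumor 3 gave a call of KLK5, and leaving out DDX4-null tumor 4 one of KLK11. The median log2 change of the 7 was 0.89, against 0.0 over all genes tested.

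KLK10 carried most of the kallikrein RNA in tumors. It had 395.6, 141.7, 56.9 and 85.8 CPM in DDX4-null tumors, against 72.9, 41.2, 65.9 and 62.5 CPM in control tumors, a log2 change of 1.49 ± 0.49. DDX4-null tumor 1 was the highest of the 8 and DDX4-null tumor 3 lay within the control range. Without DDX4-null tumor 1 the log2 change was 0.64 ± 0.25. KLK5 had 26.7, 13.5, 2.41 and 8.51 CPM in DDX4-null tumors, against 2.72, 3.0, 3.69 and 3.27 CPM in control tumors, a log2 change of 1.99 ± 0.53. For KLK5, 3 DDX4-null tumors lay above every control tumor and 1 lay below every control tumor. Without DDX4-null tumor 1 its log2 change was 1.35 ± 0.4. KLK11 had 10.8, 7.56, 4.77 and 2.5 CPM in DDX4-null tumors, against 2.86, 1.82, 2.33 and 2.11 CPM in control tumors, a log2 change of 1.48 ± 0.38, and 1.13 ± 0.31 without DDX4-null tumor 1.

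The remaining members had smaller differences between the tumor groups. KLK4 had 7.12, 3.75, 1.78 and 3.76 CPM in DDX4-null tumors and 2.16, 1.71, 2.44 and 2.37 CPM in control tumors (log2 change 0.89 ± 0.35). KLK7 had 6.25, 2.39, 0.747 and 2.32 CPM in DDX4-null tumors and 2.37, 1.29, 1.99 and 1.56 CPM in control tumors (log2 change 0.66 ± 0.49). In both genes DDX4-null tumor 1 was the highest library and DDX4-null tumor 3 the lowest of its group. KLK8 had 2.86, 1.03, 0.575 and 0.876 CPM in DDX4-null tumors and 1.6, 1.06, 0.886 and 0.805 CPM in control tumors (log2 change 0.26 ± 0.46). KLK6 had 3.73, 2.67, 0.632 and 1.69 CPM in DDX4-null tumors and 1.6, 2.12, 2.44 and 2.62 CPM in control tumors (log2 change -0.05 ± 0.41). For both genes all 4 control libraries lay inside the range of the DDX4-null libraries. Without DDX4-null tumor 1 the changes were 0.5 ± 0.27 for KLK4 and 0.01 ± 0.36 for KLK7. For KLK8 the change without that library was -0.35 ± 0.34, and for KLK6 it was -0.41 ± 0.37. KLK13 had 25 counts in DDX4-null tumors and 22 in control tumors. Among the other kallikreins, KLK14 averaged 3.01 ± 0.732 CPM in DDX4-null tumors and 1.88 ± 0.605 CPM in control tumors (SD), and its log2 change of 0.65 ± 0.27 was not called (edgeR adjusted p = 0.2), nor was that of 0.64 ± 0.28 without DDX4-null tumor 1 (0.25). KLK1 had 13 counts in DDX4-null tumors and 0 in control tumors, at least 5.36-fold more, taking 3 counts over the group as the floor.

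The DDX4-null tumors differed widely among themselves, and in the same order for most members. DDX4-null tumor 1 was the highest of its group for all 7 tested members, and DDX4-null tumor 3 was the lowest for 6 of 7. The highest level was 11.1 times the lowest for KLK5 within DDX4-null tumors, against 1.36 times within control tumors. For KLK10 these ratios were 6.95 in DDX4-null tumors and 1.77 in control tumors, and for KLK11 they were 4.3 and 1.57. KLK14, outside the 10, spread less in DDX4-null tumors, at 1.84 times, than in control tumors, at 2.09 times. The fibroblast marker sum was also highest in DDX4-null tumor 1. DDX4-null tumors 2, 3 and 4, at 1662, 1906 and 1890 CPM of those markers, had KLK5 at 13.5, 2.41 and 8.51 CPM. Leukocyte markers summed to 43.0, 9.84, 15.8 and 22.9 CPM in DDX4-null tumors and 10.9 to 16.6 CPM in control tumors, with all 5 detected in both groups. Of these, edgeR called 0 of 3 tested, where 2.09% of all tested genes were called, and 1 had an unadjusted p under 0.05. The 4 endothelial markers in the table summed to 21.0 to 39.7 CPM in DDX4-null tumors and 17.7 to 25.5 CPM in control tumors. In monolayers they summed to 25.3 to 28.8 CPM in DDX4-null and 14.2 to 15.8 CPM in control libraries. Their sum thus does not measure endothelium alone. Between the tumor groups edgeR called 0 of these 4 markers, and 2 had an unadjusted p under 0.05. The 5 skeletal muscle markers, all with counts in both groups, summed to 133.6, 129.2, 5.57 and 299.7 CPM in DDX4-null tumors, against 153.4, 313.2, 308.6 and 92.8 CPM in control tumors. DDX4-null tumor 3 lay far below the other tumors for these markers. Of the 5, edgeR called 0 (none at an unadjusted p under 0.05), where 2.09% of all tested genes were called. Skin and hair follicle markers, a tissue rich in kallikreins, summed to 28.4 to 39.5 CPM in DDX4-null tumors and 34.3 to 57.0 CPM in control tumors. In monolayers the same sum was 23.0 to 31.6 CPM in DDX4-null and 30.9 to 42.3 CPM in control libraries. There KRT1, KRT25, KRT71, LORICRIN and CDSN had 0 counts, so this sum does not measure skin tissue alone. Of those 8 markers 6 had counts in DDX4-null tumors and 7 in control tumors, with CDSN at 0 in both groups and KRT71 at 0 in DDX4-null tumors. Of 3 tested skin markers, edgeR called 2 lower in DDX4-null tumors, where 1.1% of all tested genes were called lower. These were KRT25 and KRT71, keratins of the hair follicle. DESeq2 called the same 2 lower, of 5 with a p-value, and 405 genes lower in all. KRT25 had 0, 3, 0 and 0 counts in DDX4-null tumors, against 9, 122, 330 and 22 in control tumors, 130.1-fold fewer relative to library size (95% exact interval 44.3 to 633.3; edgeR adjusted p = 0.028). KRT71 had 0 counts in every DDX4-null tumor, against 21, 115, 258 and 13 in control tumors, at least 109.7-fold fewer (edgeR adjusted p = 0.036). Both keratins were tested only through the control tumors, where they are high, so their calls give no support of their own. KRT25 lost its call without control tumor 2 or 3 or DDX4-null tumor 2, 3 or 4, and KRT71 without any of these or control tumor 1, with adjusted p up to 0.085 and 0.1. The part of these cell types in the kallikrein values was not tested.

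**Figure D2:**
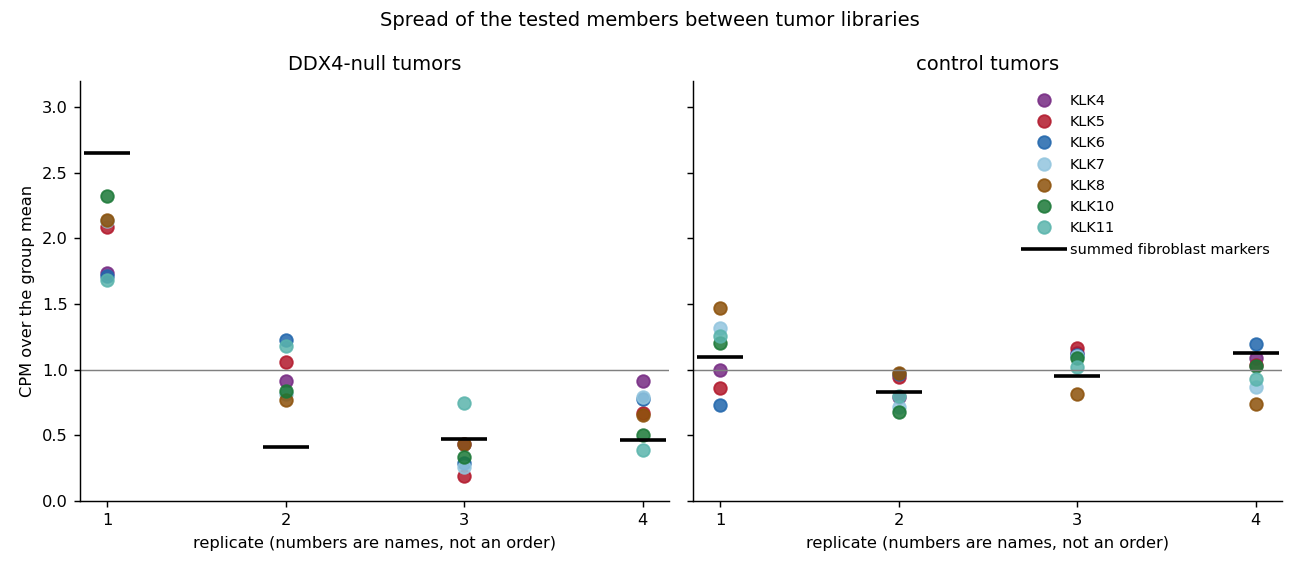
CPM of the 7 tested members in each tumor library divided by the mean of its group, for DDX4-null tumors (left) and control tumors (right), with the summed fibroblast markers as black bars. DDX4-null tumor 1 lies above the other 3 for all 7 members and for the markers, and control tumors spread less.

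Compared with DDX4-null monolayers, DDX4-null tumors held more KLK10 and less KLK5. Of the 7 tested members, 2 were called higher in tumors (34.6% of 13277 tested genes were) and 2 lower (35.3% were). KLK10 averaged 170.0 ± 154.5 CPM in DDX4-null tumors and 15.4 ± 3.2 CPM in DDX4-null monolayers (SD), a log2 change of 3.48 ± 0.49, and KLK4 had one of 1.18 ± 0.36. KLK5 averaged 12.8 ± 10.3 CPM in DDX4-null tumors and 81.7 ± 7.41 CPM in DDX4-null monolayers, a log2 change of -2.69 ± 0.43, and KLK8 had one of -1.72 ± 0.38. The groups did not overlap for KLK10, which lay higher in tumors as 30.5% of tested genes did without overlap, nor for KLK5 and KLK8, which lay lower as 32.9% did. They overlapped for KLK4. KLK6, KLK7 and KLK11 were not called, with log2 changes of 0.13 ± 0.44, 0.66 ± 0.47 and 0.68 ± 0.33. These were, without DDX4-null tumor 1, -0.22 ± 0.37, 0.03 ± 0.33 and 0.34 ± 0.26. KLK7 was called higher without DDX4-null tumor 3, at 1.0 ± 0.37, and KLK11 without DDX4-null tumor 4, at 0.95 ± 0.25. Without DDX4-null tumor 1 the log2 changes were 2.64 ± 0.21 for KLK10, -3.3 ± 0.29 for KLK5, -2.32 ± 0.27 for KLK8 and 0.8 ± 0.29 for KLK4. KLK14 fell by 3.21 on the log2 scale in DDX4-null tumors (SE 0.18, edgeR adjusted p = 4.7e-09), and KLK1 fell by 3.9 (SE 0.5, edgeR adjusted p = 1.2e-05). They fell by 3.21 and 4.51 without DDX4-null tumor 1. KLK1 was tested only through the DDX4-null monolayers, where it is high.

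Control tumors held more of all 7 tested members than control monolayers. All 7 were called higher, where 33.9% of 12858 tested genes were called higher, and none overlapped between groups, which held in this direction for 29.9% of genes. As in the monolayer comparison, 6 of the 7, all but KLK10, were tested only through the group where they are high, so the count gives no support of its own. KLK10 averaged 60.6 ± 13.7 CPM in control tumors and 3.08 ± 0.664 CPM in control monolayers (SD), a log2 change of 4.31 ± 0.19. KLK5 averaged 3.17 ± 0.415 CPM in control tumors and 0.15 ± 0.105 CPM in control monolayers, a log2 change of 4.41 ± 0.34. The log2 changes of KLK4, KLK6 and KLK7 were 4.42 ± 0.45, 4.69 ± 0.49 and 4.14 ± 0.4, and those of KLK8 and KLK11 were 3.16 ± 0.44 and 2.61 ± 0.3. KLK13 had 22 counts in control tumors and 3 in control monolayers, 5.86-fold more (95% exact interval 1.76 to 30.6). KLK14 was not called: it had 1.88 ± 0.605 CPM in control tumors and 2.06 ± 0.441 CPM in control monolayers, with a log2 change of -0.09 ± 0.25 (edgeR adjusted p = 0.78), and its groups overlapped. KLK1 had 0 counts in control tumors and 1 in control monolayers. With scaling by library totals 5569 genes were called higher in control tumors and 2870 lower, against 4354 and 3986 with TMM, and the median of all genes moved to 0.19 on the log2 scale, against 0.02.

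The DDX4-null change in tumors was smaller than that in monolayers for 6 of the 7 tested members in the model of all 16 libraries, where 26.8% of 13603 genes were called in this direction. The differences of log2 changes, tumors minus monolayer, were -7.12 ± 0.86 for KLK5, -4.9 ± 0.66 for KLK8, -4.56 ± 0.85 for KLK6, -3.49 ± 0.82 for KLK7, -3.24 ± 0.74 for KLK4 and -1.93 ± 0.54 for KLK11. KLK10 was the exception, at -0.83 ± 0.63, and without DDX4-null tumor 1 it was called, at -1.67 ± 0.35. Without that library the others were -7.72 ± 0.62 for KLK5, -5.48 ± 0.5 for KLK8, -4.9 ± 0.78 for KLK6, -4.11 ± 0.63 for KLK7, -3.61 ± 0.64 for KLK4 and -2.26 ± 0.47 for KLK11. KLK14 had a difference of -3.13 ± 0.31 (edgeR adjusted p = 7.3e-08), and of -3.13 ± 0.32 without DDX4-null tumor 1. Each pairwise comparison shares libraries with the other comparisons and with this difference, so they are not independent. With library totals 2721 genes were called in the positive direction and 4404 in the negative one, against 3532 and 3649 with TMM.

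**Figure D3:**
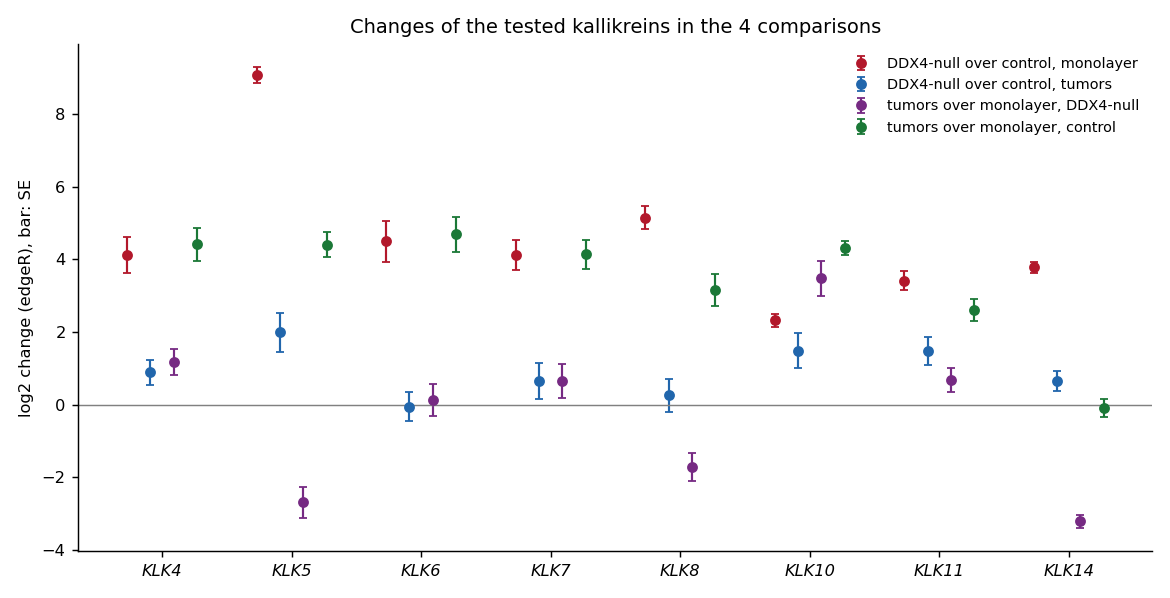
Log2 change with its SE for the 7 tested members and KLK14 in the 4 comparisons. KLK5 has the largest change, 9.08 in monolayer, and KLK14 is near 0 in control tumors over control monolayers, where the 7 members are between 2.61 and 4.69.

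The make-up of kallikrein RNA differed between culture and tumors when levels were put on a per-length scale (CPM per kb of exon). In DDX4-null monolayers KLK5 led, with 49.4 CPM per kb and 58.3% of the kallikrein total, followed by KLK14 at 28% and KLK10 at 4.69%. In control monolayers KLK14 led with 58.3%, KLK10 had 27.0% and KLK5 2.86%. That order depends on the length, which pools all annotated exons of a gene (1.189 kb for KLK14, 3.853 kb for KLK10). In CPM KLK10 was the higher there, at 3.08 ± 0.664 against 2.06 ± 0.441 for KLK14 (SD). In DDX4-null tumors KLK10 had 68.4%, KLK5 12% and KLK14 5.77%, and in control tumors KLK10 had 66.0%, KLK5 8.29% and KLK14 6.81%. KLK10 lay above KLK5 in all 4 libraries of each tumor group, and KLK5 above KLK10 in all 4 DDX4-null monolayers. Below KLK10 in DDX4-null monolayers came KLK8 at 2.28, KLK1 at 1.38, KLK11 at 1.28, KLK6 at 0.999, KLK4 at 0.926 and KLK7 at 0.748 CPM per kb, and neighbours from KLK8 to KLK7 overlapped in range. In control monolayers the members below KLK10, from KLK11 at 0.119 to KLK13 at 0.0231 CPM per kb, overlapped from each to the next. In DDX4-null tumors KLK4, KLK11, KLK7 and KLK6 lay between 2.12 and 1.1 CPM per kb, and in control tumors KLK4, KLK6, KLK7, KLK11 and KLK8 lay between 1.12 and 0.584, each overlapping the next.

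**Figure D4:**
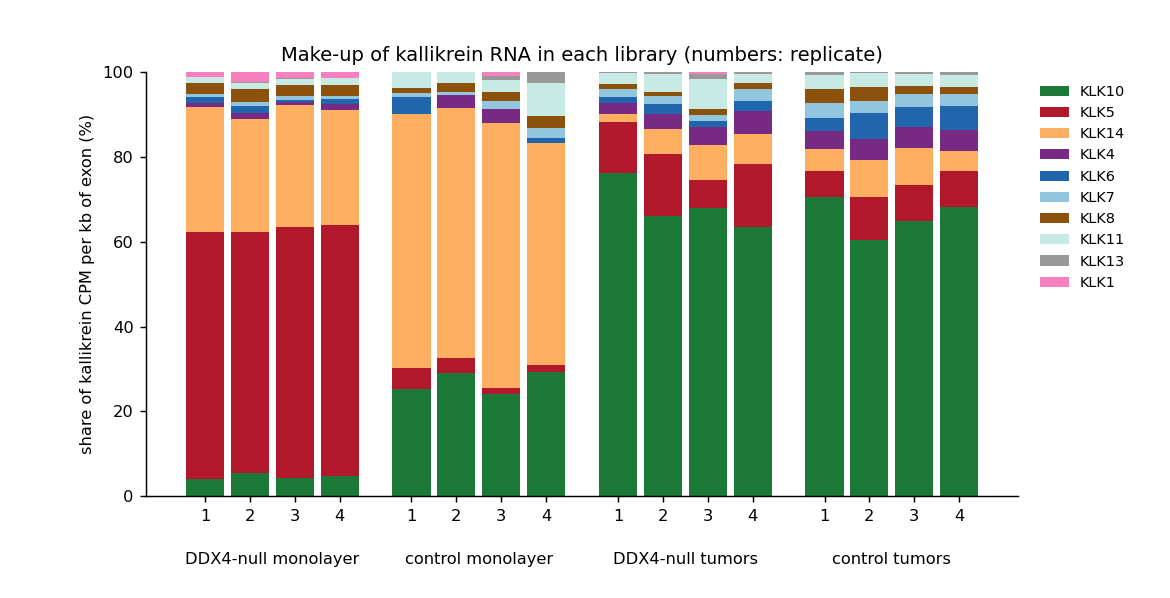
Share of each kallikrein in the kallikrein total of each library, from CPM per kb of exon, in percent. KLK5 and KLK14 take most of the DDX4-null monolayers, KLK14 and KLK10 most of the control monolayers, and KLK10 most of every tumor library.

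The cluster was also set beside its neighbours on chromosome 19. Among the 10 genes of the table before the cluster, 6 of 7 tested rose in DDX4-null monolayers, where 35.0% of all genes did. LRRC4B, a synaptic adhesion protein, averaged 26.6 ± 3.72 CPM in DDX4-null and 0.363 ± 0.188 CPM in control monolayers (SD; log2 change 6.21 ± 0.22, edgeR adjusted p = 1.3e-14). SHANK1, a synaptic scaffold, rose by 4.51 ± 0.21 (edgeR adjusted p = 5.2e-13), SYT3 by 2.99 ± 0.33 (1.8e-07) and CLEC11A, a secreted growth factor, by 2.0 ± 0.17 (6e-09) on the log2 scale. C19orf48P and C19orf81 rose by 0.51 ± 0.12 and 0.68 ± 0.25, and C19orf81 lost its call without DDX4-null monolayer 3 or 4 or control monolayer 2 or 3 (log2 changes 0.57 to 0.65). Among the 10 genes after the cluster, 3 of 7 tested rose: CD33 by 1.1 ± 0.22 on the log2 scale (edgeR adjusted p = 0.00022), IGLON5 with 102 counts in DDX4-null cells against 2 in control cells, and SIGLEC9 with 68 against 0, at least 19.3-fold more. At least LRRC4B, IGLON5 and SIGLEC9 could not have passed the filter without the DDX4-null libraries, where they are high. Their calls were largely fixed by the filter, so the counts of neighbours that rose give no support of their own. CTU1, next to KLK14, averaged 7.88 ± 1.27 CPM in DDX4-null and 8.11 ± 2.09 CPM in control monolayers (SD) and was not called. The median log2 change of all 942 tested genes of chromosome 19 was -0.09, against 0.02 over all genes tested. Whether the region around the cluster changed as a unit was not tested. In tumors, edgeR called 0 of 6 tested genes before the cluster (none at an unadjusted p under 0.05, and none by DESeq2) and 1 of 5 after it, where 2.09% of all tested genes were called. That gene was CD33, a receptor of myeloid cells, with 7.72, 7.4, 4.65 and 6.07 CPM in DDX4-null tumors and 2.23, 1.18, 1.07 and 0.957 CPM in control tumors (log2 change 2.28 ± 0.29, edgeR adjusted p = 0.0044).

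**Figure D5:**
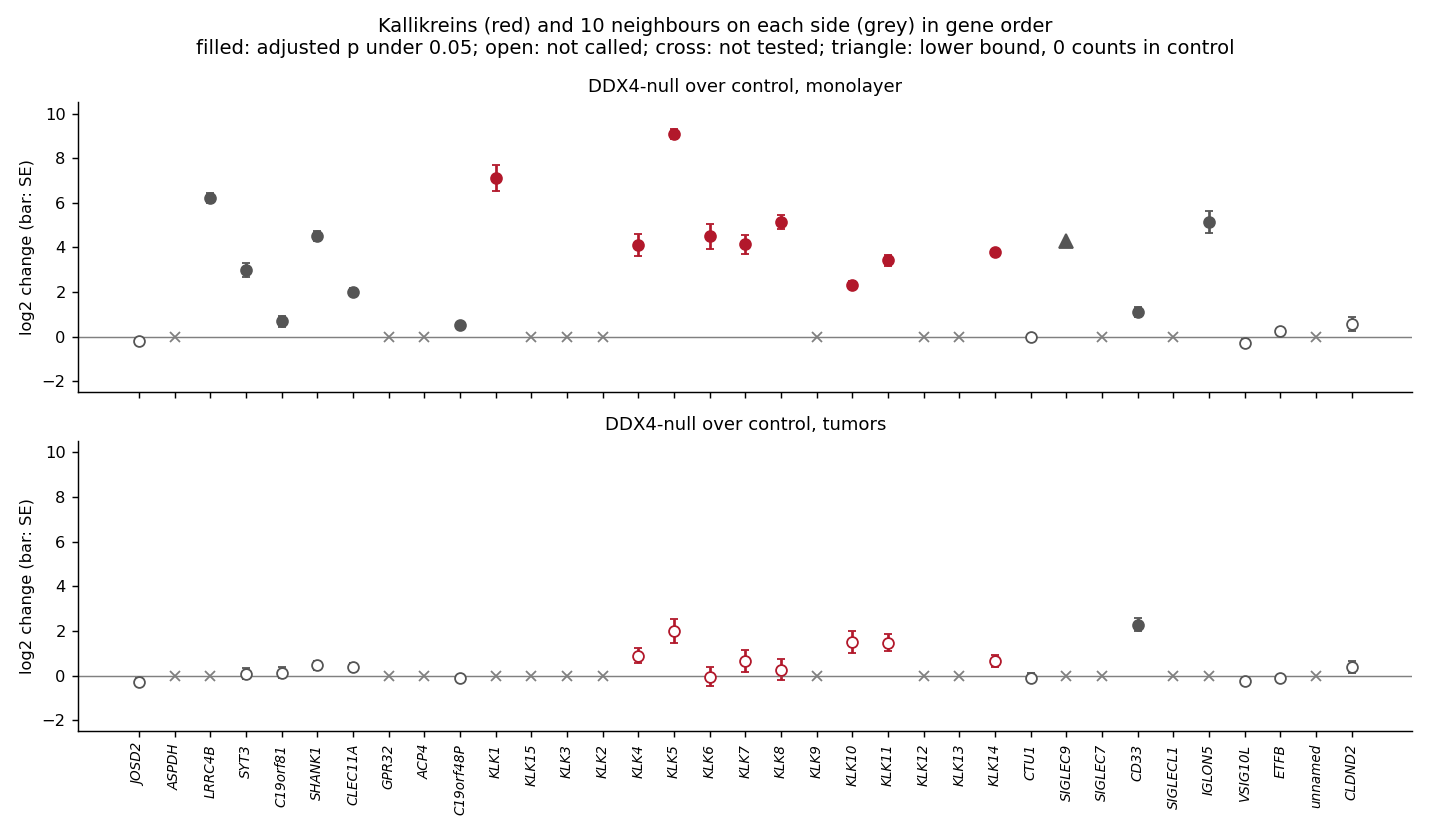
Log2 change with its SE along the gene order of the kallikrein cluster and 10 neighbours on each side, DDX4-null over control, in monolayer (top) and tumors (bottom). In monolayer the tested kallikreins and 6 of 7 tested genes before them are positive and called, while CTU1 next to KLK14 is near 0, and in tumors only CD33 is called among the genes shown.

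Some kallikrein inhibitors and activators were called between genotypes in culture, where 67.3% of all 13006 tested genes were called in either direction. Of 12 inhibitors, 4 were tested in monolayer, 2 rose and 1 fell, where 35.0% of all tested genes rose and 32.3% fell. SERPINA1, alpha-1 antitrypsin, averaged 42.1 ± 7.54 CPM in DDX4-null and 1.21 ± 0.122 CPM in control monolayers (SD; log2 change 5.12 ± 0.17, edgeR adjusted p = 4.4e-15). SPINK5, the skin inhibitor of KLK5, KLK7 and KLK14, averaged 7.29 ± 0.903 CPM in DDX4-null and 2.71 ± 0.609 CPM in control monolayers (log2 change 1.43 ± 0.17, edgeR adjusted p = 5.2e-07). SPINK1, a pancreatic trypsin inhibitor, fell by 0.99 (SE 0.28, edgeR adjusted p = 0.0042). Of 13 activating proteases and their inhibitors, 8 were tested, 4 rose and 2 fell, against 35.0% and 32.3% of all tested genes. TMPRSS4, a membrane serine protease, had 74 counts in DDX4-null and 0 in control monolayers, at least 21.0-fold more (edgeR adjusted p = 1.3e-06). TMPRSS4 was tested only through the DDX4-null libraries, so its call and its place among the 4 give no support of their own. SPINT1 rose by 0.93 ± 0.11 and SPINT2 fell by 1.12 (SE 0.1), both inhibitors of membrane serine proteases, and CTSC, a lysosomal dipeptidyl peptidase, fell by 0.97 (SE 0.1), with edgeR adjusted p of 2.3e-07, 6.5e-09 and 1.2e-07. In tumors neither list had a call: edgeR called 0 of 3 inhibitors and 0 of 6 activators, where 2.09% of all genes were called, with none at an unadjusted p under 0.05 and none by DESeq2.

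In DDX4-null tumors against DDX4-null monolayers the inhibitors changed in both directions. Of 4 tested, 2 rose and 2 fell, where 34.6% of all tested genes rose and 35.3% fell. SERPINA1 fell to 0.949 ± 0.731 CPM in DDX4-null tumors, against 42.1 ± 7.54 CPM in DDX4-null monolayers (SD; log2 change -5.36 ± 0.3, edgeR adjusted p = 5.1e-09). SPINK5 fell by 2.21 on the log2 scale (SE 0.28, edgeR adjusted p = 1.1e-05), while SPINK1 rose by 2.23 ± 0.23 (edgeR adjusted p = 1.9e-06). SERPINF2 rose by 1.08 ± 0.37 (edgeR adjusted p = 0.018). In 3 of the fits that left out a library, only 1 inhibitor was called higher. Without DDX4-null tumor 1 the log2 changes were -5.14 ± 0.25 for SERPINA1, -1.97 ± 0.21 for SPINK5 and 2.31 ± 0.25 for SPINK1, all still called.

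Control tumors against control monolayers had 1 inhibitor higher and 2 lower of 4 tested, where 33.9% of all tested genes rose and 31.0% fell. SERPINA1 fell by 1.9 (SE 0.32, edgeR adjusted p = 6e-05) and SPINK5 by 1.23 (SE 0.23, edgeR adjusted p = 0.0002), and SPINK1 rose by 1.08 ± 0.29 (edgeR adjusted p = 0.0032). Of 8 tested activators and their inhibitors, 4 rose and 2 fell in control tumors. PRSS8, or prostasin, a membrane-anchored protease, rose by 2.07 ± 0.24 (edgeR adjusted p = 1.2e-06), and TMPRSS2, an androgen-driven membrane protease of prostate, by 1.9 ± 0.15 on the log2 scale (edgeR adjusted p = 1.1e-08).

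Substrates and receptors of kallikreins changed in both directions. Of 20, 11 were tested in monolayer, where 5 rose and 5 fell, against 35.0% and 32.3% of all tested genes. IGFBP3, an insulin-like growth factor binding protein that KLK3 cuts, averaged 0.49 ± 0.272 CPM in DDX4-null and 53.1 ± 5.92 CPM in control monolayers (SD; log2 change -6.74 ± 0.21, edgeR adjusted p = 1.5e-15). IGFBP5, of the same family, averaged 276 ± 22.7 CPM in DDX4-null and 27.0 ± 1.83 CPM in control monolayers (log2 change 3.35 ± 0.1, edgeR adjusted p = 1.5e-15). IL1B, an inflammatory cytokine, fell by 3.68 (SE 0.13, edgeR adjusted p = 9.5e-15), and PLAU, the urokinase pro-enzyme, rose by 1.65 ± 0.11 on the log2 scale (edgeR adjusted p = 1.1e-10). In tumors edgeR called 0 of 11 substrates and receptors (2.09% of all genes were called), 1 had an unadjusted p under 0.05, and DESeq2 called 2, DSC1 and IL1B, both lower.

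Regulators of the family were tested in the same way. Of 17 nuclear receptors and epithelial factors, 14 were tested in monolayer, 6 rose and 6 fell, against 35.0% and 32.3% of all tested genes. GRHL3, an epidermal factor, fell by 3.17 (SE 0.35, edgeR adjusted p = 1.6e-07). RARB, a retinoic acid receptor, had 1455 counts in DDX4-null and 0 in control monolayers, at least 413-fold more (edgeR adjusted p = 8.8e-14). RARB was tested only through the DDX4-null libraries, so its call and its place among the 6 give no support of their own. In tumors edgeR called 0 of 12 regulators (2.09% of all genes were called), 4 had an unadjusted p under 0.05, and DESeq2 called 3 (HOXB13, GRHL1 and ELF3), all higher.

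For the 3 members with the highest mean CPM, the genes with the most similar pattern over the 16 libraries were found by Pearson correlation of log2(CPM + 0.5). The 16 points fall in the 4 groups and share their libraries and depth, so r is given as a description. CRABP2, a retinoic acid binding protein, came closest to KLK10 (r = 0.984), followed by OLFML3 (0.981), CREG2 (0.979), NREP (0.975) and LOXL3 (0.975). ZNF521, a zinc finger protein, came closest to KLK5 (r = 0.981), followed by AFAP1L1 (0.977), STC1 (0.975), PTGFRN (0.974) and GPM6B (0.971). RIN2 came closest to KLK11 (r = 0.968), followed by LOX (0.966), NPAS2 (0.963), CD44 (0.961) and SYT9 (0.96). STC1, a secreted glycoprotein hormone, averaged 44.2 CPM in DDX4-null monolayers, 0.32 CPM in control monolayers, 6.88 CPM in DDX4-null tumors and 2.91 CPM in control tumors.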

How the data were processed

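The authors deposited whole-number read counts of 20356 Ensembl genes in 16 libraries, with no normalization. Libraries came from a stranded mRNA kit after DNase treatment, per the labels' protocols. The submitters' processing notes list Trimmomatic 0.39, STAR 2.7.10a and featureCounts 2.0.3 on build GRCh37. Strand setting, annotation and any removal of host reads were not given in the sources used here, so reads of the host may be counted on human genes.

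Symbols came from a table of gene names (19446 IDs) and GENCODE v29 (65 more), and 845 IDs had none. Exon lengths, pooled over all annotated exons of a gene, and the order of genes were taken from that GENCODE release, built on GRCh38, and promoters from RefSeq. The tissue kallikreins and the gene lists were chosen with earlier results of these data known. Named genes were all 10 members, the other tissue kallikreins, up to 4 called genes of each list with the smallest p in a comparison, called neighbours of the cluster, and the 5 genes most like each of the 3 most abundant members. Some single-gene results that the rule names are left out here, while the counts include them. A few genes called by DESeq2 alone and the called skin and epithelial markers were named after their values were seen.

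Genes were tested with edgeR 4.0.16 (R 4.3.3) by its quasi-likelihood method, after TMM scaling and filterByExpr, with Benjamini-Hochberg adjustment over all genes at 0.05. A gene near the floor in 1 group of a comparison passed this filter only through the other group. The call of such a gene gives no support of its own. Each pairwise comparison used its own 8 libraries, and the difference of changes used all 16. Levels are mean TMM-scaled CPM ± SD. Alternatives were DESeq2 1.42.0, library totals, median-of-ratios size factors, other filters, a replicate block, 1 model of 16 libraries, chromosome centring, and leaving out each library. The steps were tested on simulated counts. Replicate libraries all differed by more than counting noise (lowest chi-square per degree of freedom 3.75). Reads carry no molecular identifiers, so intervals and floors cover counting error only.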

Additional observations from a re-analysis of the deposited data

Results flagged for a closer look

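KLK10 in DDX4-null monolayers had 1 library far from the others: replicate 2 had 20.2 CPM, while the other 3 had 13.4 to 14.2 CPM, a gap of 0.88 of the group's whole range. Of the 30 groups of values checked, chance would flag about 1 in 20. That library was also the highest of its group for all 7 tested members.

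The DDX4-null change differed between tumors and monolayers (tumors minus monolayer, log2 scale) for KLK4 (-3.24), KLK5 (-7.12), KLK6 (-4.56), KLK7 (-3.49), KLK8 (-4.9), KLK11 (-1.93) and, outside the 10 members, KLK14 (-3.13, edgeR adjusted p = 7.3e-08). For the members these are descriptions, since the genes were chosen with these groups known.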

How the results depend on the processing

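The low counts of KLK3, KLK9 and KLK13 and of control monolayers limit what can be said of them, and the small number of libraries limits the tumor comparison. Of 749 recomputed log2 changes, 735 kept their side of the threshold, 13 passed it and 1 no longer did. Called changes kept their direction. Some that were not called changed sign, as for KLK6 (-0.41 to 0.27) and KLK8 (-0.35 to 0.52) in DDX4-null against control tumors. In DDX4-null against control tumors, 0 members were called, against 2 with DESeq2, 1 with no filter, 3 in 1 model of 16 libraries, and 0 to 1 when each library was left out in turn (KLK5 without DDX4-null tumor 3, KLK11 without DDX4-null tumor 4). Among all genes there, 127 were called higher and 143 lower, against 478 and 405 with DESeq2 and 470 and 338 in 1 model of 16 libraries. Chromosome centring left 85 lower, and leaving out each library gave 11 to 182 higher and 15 to 131 lower. The lowest, 11 higher and 15 lower, was without control tumor 3. With library totals 97 were higher and 168 lower. In DDX4-null tumors against DDX4-null monolayers, chromosome centring left 1 member called higher, KLK10, in place of 2. KLK10 passed the threshold for the difference of changes without DDX4-null tumor 1, at -1.67. The cause of these changes was not tested.

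Replicate numbers did not pair the libraries: correlations of same-numbered deviations ran from -0.23 to 0.393 in monolayers and from -0.0579 to 0.198 in tumors, and were 0.1 or less for some pair in every comparison. With the replicate block 1 member (KLK11) was called in DDX4-null against control tumors and 258 genes were called higher, and the counts of called members in the other comparisons did not change.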
